A study of Rattus norvegicus with 16 samples.

Results

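Neuroblasts sorted from rat carotid bodies after 3 days of hypoxia were compared with glomus cells sorted from carotid bodies of rats kept in ambient air. The comparison used 8 of the 16 samples of the series, 4 hypoxic neuroblast samples and 4 normoxic glomus cell samples, chosen by their group labels. It addressed whether a neuroblast after 3 days of low oxygen had approached the profile of the mature, resting glomus cell. The normoxic glomus cells and the hypoxic neuroblasts both came from Wistar rats aged 9 to 11 weeks, and each sample began from 500 pg of total RNA of mixed bilateral carotid bodies. The cells were dispersed, stained with the HNK-1 antibody and sorted, the stained cells being called neuroblasts and the unstained cells glomus cells. The unstained fraction can hold any carotid body cell that lacks the epitope, and the labels do not say how many animals went into a sample or whether replicates came from separate animals, so the p-values measure only the spread between these samples. The remaining 8 samples, 4 of normoxic neuroblasts and 4 of hypoxic glomus cells, served as reference points. Population and oxygen both differ between the groups compared, and within this comparison their contributions cannot be told apart.

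The carotid body is the arterial chemoreceptor that drives breathing when blood oxygen falls. Its glomus cells close potassium channels in low oxygen, take up calcium and release catecholamines and other transmitters onto sensory nerve endings. Under sustained hypoxia the organ grows. Neuroblast-like precursors then complete their maturation into glomus cells, and glia-like type II cells act as stem cells.

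Each value is a log2 signal of 1 array probe set, and a difference of 1 is a 2-fold change. A gene is represented by its single-gene probe with the highest mean. The defining glomus markers were present in both groups, with tyrosine hydroxylase (Th) at 12.62 ± 0.09 (SD, n = 4) in normoxic glomus cells and 11.13 ± 1.20 (SD, n = 4) in hypoxic neuroblasts. Among the transcripts tied to the sorting epitope, B3gat1, whose enzyme builds the HNK-1 sugar, was at 5.01 ± 0.35 (SD, n = 4) in normoxic glomus cells and 5.51 ± 0.44 (SD, n = 4) in hypoxic neuroblasts, a difference of 0.50 ± 0.29 (SE) with an adjusted p of 0.188. Array medians ranged from 4.42 to 4.64 in normoxic glomus cells and from 4.71 to 4.94 in hypoxic neuroblasts. Hypoxic neuroblast replicate 1 stood apart, with a correlation of 0.9249 with its own group mean against 0.9719 to 0.9724 in the other replicates. Results that depend on this sample are given without it as well.

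Hypoxic neuroblasts differed from normoxic glomus cells at 9648 of 30429 probes by limma with Benjamini-Hochberg adjustment at 0.05, or 31.7% of those tested. Of these, 5431 were higher in hypoxic neuroblasts (17.8%) and 4217 were lower (13.9%). At 8780 probes (28.9%) the ranges of both groups did not overlap. The median difference over all probes was 0.25, so the split between higher and lower depended on the scale. After each array was centred on its median, 1624 probes were higher and 5562 lower, and after quantile normalization 3043 were higher and 3636 lower. Without hypoxic neuroblast replicate 1, 4228 were higher and 3688 lower. The count of higher probes was 3180 without normoxic glomus replicate 3 and 3451 without normoxic glomus replicate 4. The direction also followed brightness. Among the 7610 dimmest probes, with mean values up to 3.40, 1039 were higher and 16 lower, whereas among the 7606 brightest, above 6.27, 1342 were higher and 2968 lower. The median difference was 0.32 in the dimmest and -0.38 in the brightest probes. A small rise of a dim probe or a small fall of a bright one is therefore close to the general shift, and the part of that shift in each result was not tested. The gene lists below use the brightest probe of each gene, whereas the shares beside them cover probes of every brightness. Lower counts in a list of bright genes also need reading beside the 2968 of 7606 above. Those shares are before centring, and centred list counts belong beside 1624 higher and 5562 lower of 30429.

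The transcriptome of the hypoxic neuroblasts was farther from the normoxic glomus cells than that of normoxic neuroblasts. The correlation of each hypoxic neuroblast array with the mean normoxic glomus profile was 0.8662, 0.9413, 0.9333 and 0.9445 in replicates 1 to 4. The lowest normoxic neuroblast array reached 0.9642 and the highest 0.981. Every hypoxic neuroblast array thus lay below every normoxic neuroblast array, and replicate 1 lay far below the rest. The group means were 0.9213 ± 0.0371 (SD, n = 4) and 0.9726 ± 0.0090 (SD, n = 4), a difference of -0.0513 with a two-sided exact permutation p of 0.0286, the smallest that 4 against 4 samples can give. Without hypoxic neuroblast replicate 1 the difference was -0.0329, with an exact permutation p of 0.0286. Leaving out normoxic neuroblast replicate 2, 3 or 4 gave an exact permutation p of 0.0571.

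**Figure D1:**
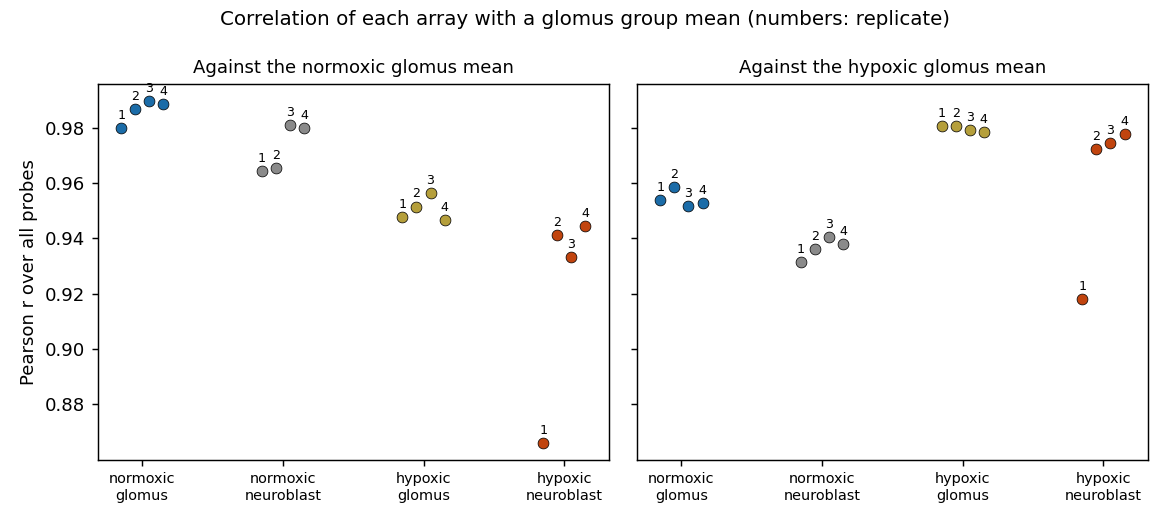
Pearson correlation over all probes of each of the 16 arrays (points, labelled by replicate) with the mean of the normoxic glomus cells (left) and of the hypoxic glomus cells (right). Hypoxic neuroblast replicates 2 to 4 sit between 0.9333 and 0.9445 on the left and between 0.9721 and 0.9777 on the right, and replicate 1 is lowest on both sides.

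The same arrays lay nearer to the hypoxic glomus cells. Their correlations with the hypoxic glomus mean were 0.9181, 0.9721, 0.9743 and 0.9777. Only 86 probes (0.283%) were called between hypoxic neuroblasts and hypoxic glomus cells, 42 higher and 44 lower. By comparison, 555 probes (1.82%) were called between normoxic neuroblasts and normoxic glomus cells, 9755 (32.1%) between hypoxic and normoxic neuroblasts, and 5744 (18.9%) between hypoxic and normoxic glomus cells. These comparisons share samples with each other, so their counts are given side by side and are not independent. The median size of a probe's difference was 0.44 for hypoxic neuroblasts and 0.16 for normoxic neuroblasts, each against normoxic glomus cells, and 0.31 and 0.16 after centring. For hypoxic neuroblasts against hypoxic glomus cells the median size was 0.20, before and after centring, larger than between the populations in normoxia. Before adjustment, 3389 probes were under the p threshold between the populations in hypoxia and 2849 in normoxia. Differences of at least 2-fold went the other way, at 570 and 764 probes. The smaller count of called probes in hypoxia therefore does not show that the populations were more alike there.

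All 5 marker genes differed between hypoxic and normoxic neuroblasts in the direction of the glomus cell level, and each of these differences passed. The markers were chosen with earlier results of these data known, so their values are a description and not independent support. The same normoxic neuroblast samples also enter both the population difference and the difference with hypoxia. Lgr5, a receptor for R-spondins that strengthens Wnt signalling, was at 8.86, 8.88, 8.77 and 8.92 in the 4 normoxic glomus samples and at 7.64, 8.30, 7.94 and 8.18 in the 4 hypoxic neuroblast samples. All hypoxic neuroblast values were below all glomus values. The difference was -0.84 ± 0.25 (SE, adjusted p = 0.0171), or 1.79-fold, while normoxic neuroblasts had a mean of only 5.46. The call against normoxic glomus cells was lost without hypoxic neuroblast replicate 1 (-0.72, adjusted p = 0.0507) and under quantile normalization (adjusted p = 0.0801). Between hypoxic and normoxic neuroblasts Lgr5 was higher by 2.55, which passed the test.

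Gpr139, an orphan G protein-coupled receptor, was at 8.69, 8.49, 8.96 and 8.86 in normoxic glomus cells and at 7.36, 8.16, 7.79 and 8.20 in hypoxic neuroblasts. The groups did not overlap, yet the difference of -0.87 ± 0.41 (SE) did not pass (adjusted p = 0.109). It passed with only the 8 arrays compared (adjusted p = 0.0186) and without normoxic neuroblast replicate 1 (adjusted p = 0.0426) or 3 (adjusted p = 0.0285). Normoxic neuroblasts had a mean of 5.24, and the hypoxic neuroblasts were 2.64 above them, which passed. Slc18a1, the vesicular monoamine transporter VMAT1, was at 11.59, 11.64, 11.76 and 11.91 in normoxic glomus cells and at 9.98, 11.74, 11.52 and 11.61 in hypoxic neuroblasts. Replicate 1 lay far below the glomus range, replicate 3 just below it, and the others inside it. The difference of -0.51 ± 0.29 (SE) did not pass (adjusted p = 0.167) and was -0.10 without replicate 1. Normoxic neuroblasts had a mean of 9.70 for this transporter.

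Kcnk3, which encodes the background potassium channel TASK1, was at 8.21, 8.31, 8.08 and 7.99 in normoxic glomus cells and at 7.14, 7.33, 7.47 and 7.49 in hypoxic neuroblasts. Every hypoxic neuroblast value was lower. The difference was -0.79 ± 0.20 (SE, adjusted p = 0.0071). It did not pass under quantile normalization (-0.45, adjusted p = 0.0863). The normoxic neuroblast mean was 6.41 and the hypoxic glomus mean 7.50, so the hypoxic neuroblasts at 7.36 sat close to the hypoxic glomus cells.

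Dbh, the enzyme that turns dopamine into noradrenaline and marks the neuroblast side of this panel, was at 6.06, 5.62, 6.35 and 6.63 in normoxic glomus cells and at 6.40, 7.72, 7.86 and 8.57 in hypoxic neuroblasts. Replicate 1 alone overlapped the glomus values. The difference was 1.47 ± 0.34 (SE, adjusted p = 0.0042). Hypoxic neuroblasts were 2.27 lower than normoxic neuroblasts for Dbh (-2.27, adjusted p = 0.00011), so they held an intermediate level. Dbh was also 2.44 higher in hypoxic neuroblasts than in hypoxic glomus cells (adjusted p = 0.0035).

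The interaction term asked whether the neuroblast minus glomus difference was itself altered by hypoxia, and 24 probes (0.0789%) passed. Of the 5 markers, Lgr5 (2.33 ± 0.35, SE, adjusted p = 0.0123) and Kcnk3 (1.60 ± 0.28, SE, adjusted p = 0.0462) passed. Gpr139 (3.10, adjusted p = 0.0614), Slc18a1 (1.34, adjusted p = 0.415) and Dbh (-1.30, adjusted p = 0.631) did not. As the markers were chosen with earlier results of these data known, these values too are a description. The calls were sensitive: the count of markers passing fell to 0 of 5 after median centring, was 4 with array weights, and was 1 when any single sample other than normoxic neuroblast replicate 1 or 3 or hypoxic neuroblast replicate 1 was left out.

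**Figure D2:**
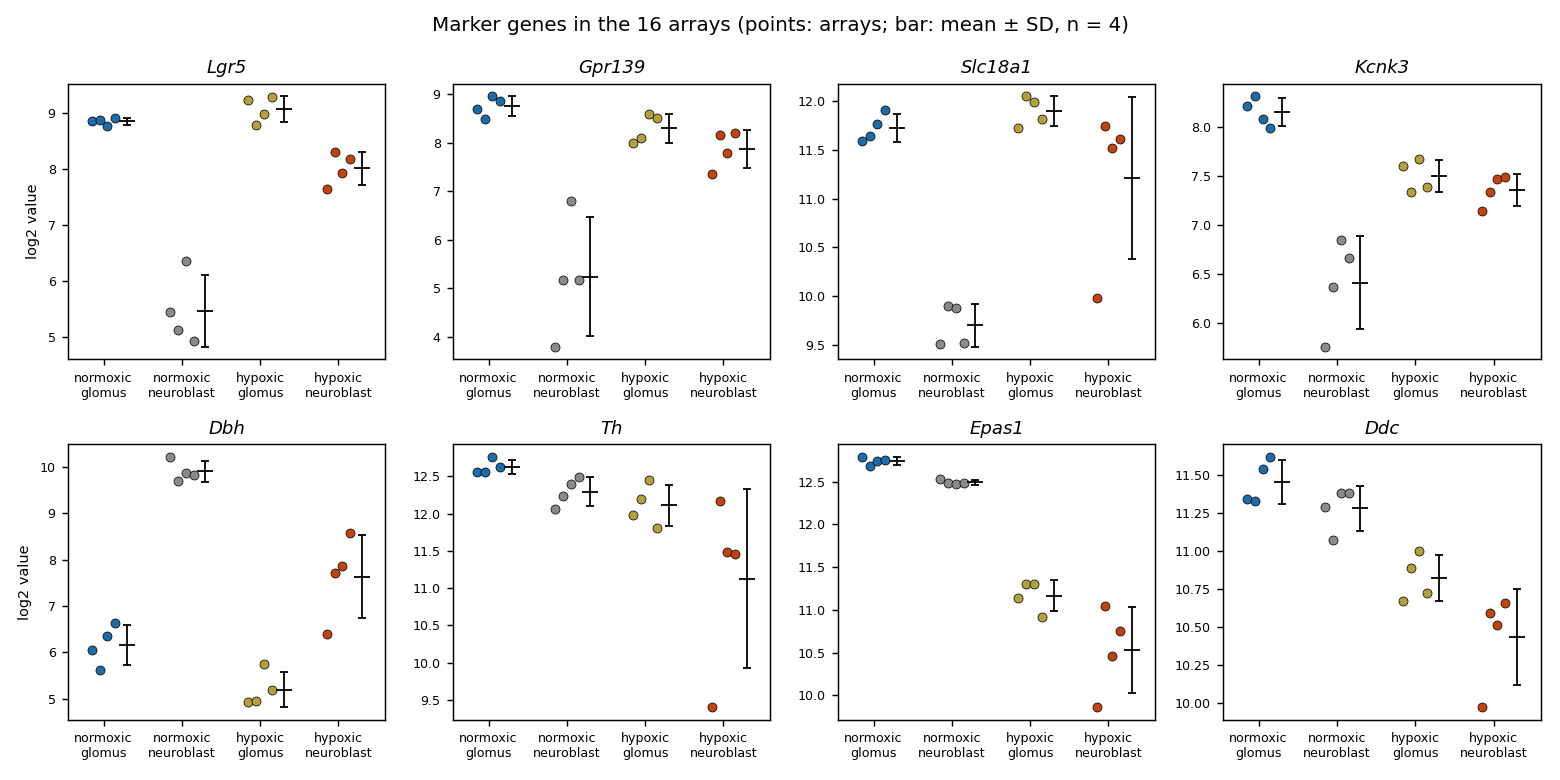
Log2 value of 8 marker genes in each of the 16 arrays (points) with the group mean and SD beside them (n = 4). For Lgr5, Gpr139 and Slc18a1 all hypoxic neuroblast points lie above the normoxic neuroblasts, Slc18a1 replicate 1 (9.98) only just, whereas Epas1 is lowest in hypoxic neuroblasts, between 9.86 and 11.05.

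The catecholamine genes changed in both directions, and Th and Ddc were lower in hypoxic neuroblasts than in resting glomus cells. Th, which catalyses the slowest step of catecholamine synthesis, was at 12.56, 12.56, 12.76 and 12.62 in glomus cells and 9.40, 12.17, 11.48 and 11.46 in hypoxic neuroblasts. All 4 hypoxic neuroblast values were lower and replicate 1 was the lowest. The difference was -1.50 ± 0.39 (SE, adjusted p = 0.0080) and -0.92 without replicate 1 (adjusted p = 0.0027). Ddc, the next enzyme of the pathway, differed by -1.02 ± 0.17 (SE, adjusted p = 0.000267). Cyb561, which recycles ascorbate inside the granule, was -2.17, and Qdpr, which regenerates the biopterin cofactor, was -1.30, and both passed. Gch1, the first enzyme of biopterin synthesis, went the other way at 1.90 (adjusted p = 6.75e-05). The vesicular transporter Slc18a2 differed by -0.28 (adjusted p = 0.424). In all, 3 of the 14 measured catecholamine genes were higher and 5 lower, beside 17.8% and 13.9% of all probes. The median difference was -0.33. Without hypoxic neuroblast replicate 1, 4 were higher and 5 lower, with a median of -0.07.

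Epas1, which encodes HIF-2α, was at 12.79, 12.68, 12.74 and 12.75 in normoxic glomus cells and at 9.86, 11.05, 10.46 and 10.75 in hypoxic neuroblasts. The groups were widely separated. The difference was -2.21 ± 0.20 (SE, adjusted p = 1.53e-06), and hypoxic glomus cells were also low, at 11.16. Of the 16 oxygen-sensing genes, 9 were lower and 1 higher, with a median of -0.88, beside 13.9% lower and 17.8% higher over all probes. Pc, the mitochondrial pyruvate carboxylase that is abundant in glomus cells, differed by -2.45 (adjusted p = 4.27e-06). Egln2, an oxygen-dependent prolyl hydroxylase, differed by -1.24, and Ndufa4l2, an atypical mitochondrial subunit, by -1.17, and both passed. The single higher gene was Cox4i2, the hypoxia-type cytochrome oxidase subunit. Its values of 11.15, 11.47, 11.92 and 11.77 lay above the glomus values of 11.05, 10.94, 11.02 and 10.96. The difference of 0.58 (adjusted p = 0.0164) did not pass after centring (0.29, adjusted p = 0.333) or without hypoxic neuroblast replicate 3 (0.47, adjusted p = 0.0536). Normoxic neuroblasts had a Cox4i2 mean of 9.80.

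The called ion channel genes were all lower in hypoxic neuroblasts than in normoxic glomus cells. Among 20 potassium channel genes, 6 were lower and none higher, with a median of 0.08, beside 13.9% lower and 17.8% higher over all probes. Kcnh2, the ERG channel, was at 8.37, 8.04, 8.33 and 8.20 in glomus cells and 5.55, 6.22, 5.76 and 5.79 in hypoxic neuroblasts. The groups did not overlap and the difference was -2.40 ± 0.21 (SE, adjusted p = 9.88e-07). Kcnq3, an M-current subunit, differed by -1.62, Kcnk9, the TASK3 partner of TASK1, by -1.39, and Kcnj3, a G protein-gated inward rectifier, by -1.54, and all passed. Without replicate 1, 1 potassium channel gene was higher, Kcnd2 (0.88, adjusted p = 0.0089), described below with the genes whose population difference shrank. Among 19 sodium, calcium and TRP channel genes, 9 were lower and none higher, with a median of -0.51. The cation channel Trpc5 differed by -2.26 (adjusted p = 8.75e-07), the sodium leak channel Nalcn by -1.56, the N-type calcium channel gene Cacna1b by -1.14 and the pacemaker channel gene Hcn2 by -0.72, and all passed. Against hypoxic glomus cells, hypoxic neuroblasts differed by -0.12 for Kcnh2, -0.15 for Kcnq3, 0.14 for Kcnk9 and -1.42 for Kcnj3. The same difference was -0.24 for Trpc5, -0.375 for Nalcn, -0.205 for Cacna1b and 0.02 for Hcn2. None of these differences from hypoxic glomus cells passed.

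Of 29 receptor genes 2 were higher and 8 lower, with a median of 0.16, beside 17.8% higher and 13.9% lower over all probes. Adora2a, an adenosine receptor that excites glomus cells, was at 9.85, 9.63, 10.61 and 10.54 in glomus cells and 6.05, 7.52, 7.77 and 7.79 in hypoxic neuroblasts. No values overlapped, and the difference was -2.88 ± 0.41 (SE, adjusted p = 6.65e-05). The somatostatin receptor Sstr1 differed by -3.12, the nicotinic subunit Chrna7 by -2.09 and the PACAP receptor Adcyap1r1 by -1.66, and all passed. Of 23 G protein and cAMP genes, 1 was higher and 10 lower. Examples were Adcy1, a calcium-stimulated adenylyl cyclase (-2.23), Gnaq (-1.54) and Rgs5, a very abundant regulator of G protein signalling in glomus cells (-1.32), each of which passed. Gnas, the stimulatory alpha subunit, differed by -2.30 on its brightest probe and by -0.83 on another (adjusted p = 0.0386). Against hypoxic glomus cells the differences were -1.06 for Adora2a, 0.26 for Sstr1, -0.03 for Chrna7 and -0.64 for Adcyap1r1. They were 0.31 for Adcy1, 0.04 for Gnaq, -0.34 for Rgs5 and -1.99 for the brightest Gnas probe. Only Gnas passed among them (adjusted p = 0.003).

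Of 21 neuropeptide genes 7 were higher and 1 lower, with a median of 0.42, beside 17.8% and 13.9% of all probes. After centring 2 were higher and 1 lower, and without normoxic glomus replicate 3 the higher genes numbered 4. Npy, neuropeptide Y, was at 6.99, 6.74, 6.49 and 7.40 in glomus cells and at 9.80, 10.33, 9.86 and 9.91 in hypoxic neuroblasts. The ranges were far apart and the difference was 3.07 ± 0.20 (SE, adjusted p = 1.65e-07), or 8.40-fold. Hypoxic glomus cells were also high for Npy, with a mean of 9.25. Prlh, prolactin-releasing hormone, was at 5.74, 5.45, 5.29 and 5.29 against 6.86, 7.68, 9.22 and 8.68, a difference of 2.67 (adjusted p = 0.000111). It was high in normoxic neuroblasts too, at 9.03, and at 5.44 in hypoxic glomus cells, where the excess of 2.67 in hypoxic neuroblasts also passed (adjusted p = 0.0051). Tac3, which encodes neurokinin B, averaged 8.74 against 7.61, with overlapping values. Its difference of 1.13 (adjusted p = 0.0261) did not pass after centring (adjusted p = 0.0976) or without hypoxic neuroblast replicate 1 (adjusted p = 0.0595), normoxic glomus replicate 3 (adjusted p = 0.0939) or normoxic glomus replicate 4 (adjusted p = 0.0974). Penk (0.70) and Calca (0.63) passed and also lost their calls after centring. Of the 21 granule and exocytosis genes, 4 were higher, among them Vgf, a granule protein precursor (1.64), and 6 lower, among them the vesicle proteins Sv2a (-1.66), Syt4 (-1.31) and Syt1 (-1.07). After centring 2 were higher and 10 lower, and 2 were higher without hypoxic neuroblast replicate 1 or normoxic glomus replicate 3 or 4. Chga, chromogranin A, differed by -0.77 (adjusted p = 0.0226), a call lost without hypoxic neuroblast replicate 1 (adjusted p = 0.067), normoxic glomus replicate 3 (adjusted p = 0.058) or normoxic glomus replicate 4 (adjusted p = 0.0773).

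Many cell cycle genes were higher in hypoxic neuroblasts. Of 37 measured genes, 24 were higher and 2 lower, with a median of 1.13, beside the 17.8% of all probes that were higher. After centring 21 were higher and 2 lower, and without replicate 1 25 were higher and 2 lower. Rrm2, a ribonucleotide reductase subunit that supplies DNA precursors, was at 5.32, 6.13, 5.84 and 6.23 in glomus cells and at 10.66, 10.19, 10.43 and 10.55 in hypoxic neuroblasts. The hypoxic neuroblast values were tightly grouped and far above. The difference was 4.58 ± 0.23 (SE, adjusted p = 3.02e-09), or 23.9-fold, although a dim second Rrm2 probe differed by only 0.72 (adjusted p = 0.0328).

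Cdk1, the mitotic kinase, was at 3.82, 3.97, 3.82 and 3.82 in glomus cells and at 6.83, 8.38, 8.76 and 8.67 in hypoxic neuroblasts. Replicate 1 was the lowest of its group and still far above every glomus value. The difference was 4.30 ± 0.32 (SE, adjusted p = 6.55e-07). Cdkn3, a phosphatase acting on cyclin-dependent kinases, differed by 4.54, Cks2, a small kinase-binding subunit, by 4.05, Pttg1, the securin that guards chromatid separation, by 3.62, Mki67, which encodes the Ki-67 antigen, by 3.39, and Spc25, a kinetochore component, by 3.36. In each of these 5 genes the groups did not overlap. Rrm2, Cdk1, Cks2, Pttg1, Mki67 and Spc25 were picked for a normoxic neuroblast level near that of glomus cells, and those means were 5.66 for Rrm2, 3.65 for Cdk1, 4.81 for Cks2, 4.51 for Pttg1, 4.48 for Mki67 and 3.36 for Spc25. The hypoxic glomus means were 9.41, 6.95, 7.87, 7.06, 7.29 and 5.96 in the same order, between the normoxic and the hypoxic neuroblast levels. Nusap1, a spindle protein, was the cell cycle gene named here with an excess over hypoxic glomus cells that passed, at 7.51 against 6.01 (difference 1.50, adjusted p = 0.0039).

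Since these genes moved together, the 250 bases upstream of their annotated starts were read from RefSeq promoters of the GRCr8 build. A record was found for 5 of the 6 genes named for this pattern, the exception being Rrm2. The capitals mark the cell cycle genes homology region TTTGAA and the CCAAT box, each searched on both strands, with the letters given 5′ to 3′ on the gene's own strand.
Cdk1 (chr20:19265043-19265292, plus strand): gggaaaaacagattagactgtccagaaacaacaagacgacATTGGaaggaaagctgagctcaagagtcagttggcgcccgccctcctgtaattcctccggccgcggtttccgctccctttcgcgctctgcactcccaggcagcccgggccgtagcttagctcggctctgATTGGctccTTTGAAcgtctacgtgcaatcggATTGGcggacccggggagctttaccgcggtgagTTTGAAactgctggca
Cks2 (chr17:13727520-13727769, minus strand): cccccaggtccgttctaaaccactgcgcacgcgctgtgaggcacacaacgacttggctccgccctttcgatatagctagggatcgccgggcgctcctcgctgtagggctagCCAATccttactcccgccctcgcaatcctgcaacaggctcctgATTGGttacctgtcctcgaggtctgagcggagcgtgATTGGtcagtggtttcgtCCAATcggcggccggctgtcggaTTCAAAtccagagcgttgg
Pttg1 (chr10:28406327-28406576, minus strand): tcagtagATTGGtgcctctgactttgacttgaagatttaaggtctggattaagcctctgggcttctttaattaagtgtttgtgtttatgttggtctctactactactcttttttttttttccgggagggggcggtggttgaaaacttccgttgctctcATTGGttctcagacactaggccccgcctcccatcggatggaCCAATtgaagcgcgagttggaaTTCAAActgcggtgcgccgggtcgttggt
Mki67 (chr1:199952594-199952843, minus strand): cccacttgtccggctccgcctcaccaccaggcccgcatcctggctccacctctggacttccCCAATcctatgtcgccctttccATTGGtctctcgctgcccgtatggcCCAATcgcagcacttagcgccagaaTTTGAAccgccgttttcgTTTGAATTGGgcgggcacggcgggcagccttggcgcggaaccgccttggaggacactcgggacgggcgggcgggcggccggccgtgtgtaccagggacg
Spc25 (chr3:74396719-74396968, minus strand): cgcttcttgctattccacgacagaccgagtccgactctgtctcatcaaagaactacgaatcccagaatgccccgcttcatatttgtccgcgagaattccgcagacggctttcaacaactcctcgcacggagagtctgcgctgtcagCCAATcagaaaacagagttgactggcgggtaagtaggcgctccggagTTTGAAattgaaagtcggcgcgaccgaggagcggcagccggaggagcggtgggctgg
Each of the 5 windows held both motifs. Over all 33469 RefSeq promoters, windows of the same length held TTTGAA in 16.2%, CCAAT in 34% and both in 5.87%. In Mki67 a TTTGAA and a reverse-strand CCAAT share bases. Of the 24 higher cell cycle genes, 20 had a record, of which 9 held TTTGAA, 17 held CCAAT and 9 held both. A match describes the letters only.

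The remaining large increases were small calcium-binding and membrane proteins, several of them known from glia. S100a10, a partner of annexin A2, was at 7.31, 5.94, 6.24 and 5.45 in glomus cells and at 11.35, 11.15, 10.78 and 10.99 in hypoxic neuroblasts, a difference of 4.83 ± 0.40 (SE, adjusted p = 8.75e-07). Fxyd1, phospholemman, a regulator of the sodium pump, was at 6.85, 4.91, 6.25 and 4.46 against 10.43, 10.86, 9.96 and 10.42, a difference of 4.80 ± 0.41 (SE, adjusted p = 9.88e-07). Both genes separated completely. Hypoxic glomus cells averaged 9.815 for S100a10 and 8.11 for Fxyd1. S100a11 differed by 4.26, S100b by 3.87, the chemokine-like adipokine gene Rarres2 by 4.03 and the ecto-ADP-ribosyltransferase gene Art3 by 3.76, and all passed. Dlg5l15 differed by 4.03, but it belongs to a multi-copy family and 6 other probes of that name ranged from -0.32 to 1.67.

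These increases came with markers of type II and glial cells. In that list 6 of 13 measured genes were higher and 1 was lower, beside 17.8% and 13.9% of all probes. The median was 0.56, and after centring 5 were higher and 1 lower. The higher genes were S100b, Gpm6b (2.35), Sostdc1 (1.78), Erbb3, Gfap and Sox10. The lower gene was Ngfr, the p75 neurotrophin receptor (-2.10, adjusted p = 6.73e-06). The log2 of the list's summed signal was 10.65 to 10.73 in normoxic glomus cells and 10.48 to 11.48 in hypoxic neuroblasts. In bulk samples, more cells of a type and more RNA per cell cannot be told apart, and the part of glial cells in the increases was not tested. Fxyd1 was also 2.31 higher in hypoxic neuroblasts than in hypoxic glomus cells (adjusted p = 0.0194), as was Gpm6b, by 2.24 (adjusted p = 0.0119).

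**Figure D3:**
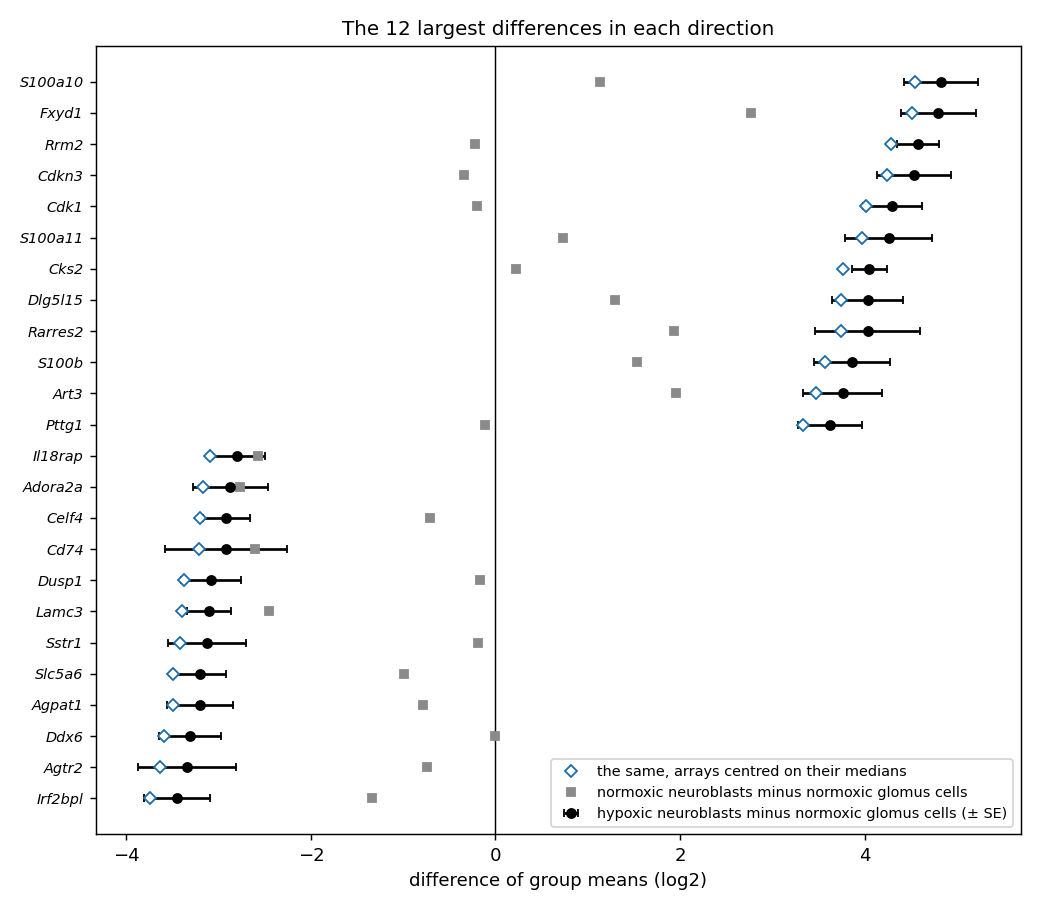
Difference of group means on the log2 scale for the 12 largest increases and 12 largest decreases of hypoxic neuroblasts against normoxic glomus cells (black, with SE), the same after median centring (open diamonds), and normoxic neuroblasts against normoxic glomus cells (grey squares). The increases run from 3.62 to 4.83, the decreases from -2.81 to -3.45, and centring keeps every direction.

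The largest decreases were of mixed function. Irf2bpl, a nuclear regulator, was at 8.14, 7.79, 8.71 and 8.99 in glomus cells and at 5.12, 5.17, 5.04 and 4.49 in hypoxic neuroblasts. All hypoxic neuroblast values were lower, and the difference was -3.45 ± 0.36 (SE, adjusted p = 4.14e-06). Agtr2, the angiotensin II type 2 receptor, differed by -3.34, Ddx6, an RNA helicase of processing bodies, by -3.31, Agpat1, an enzyme of phospholipid synthesis, by -3.20, Slc5a6, the sodium-dependent vitamin transporter, by -3.20, Lamc3, a laminin chain, by -3.10, and Celf4, an RNA-binding protein of neurons, by -2.92, and all passed. Il18rap, a chain of the interleukin-18 receptor, differed by -2.81. Dusp1, an immediate early phosphatase, was at 11.35, 11.23, 11.43 and 11.32 against 6.94, 8.60, 9.02 and 8.43. It differed by -3.08 ± 0.32 (SE, adjusted p = 4.72e-06). Against hypoxic glomus cells, hypoxic neuroblasts differed by -0.61 for Irf2bpl, -0.995 for Agtr2, -1.165 for Ddx6, -0.91 for Agpat1 and -1.13 for Slc5a6. The same difference was -0.96 for Lamc3, -0.90 for Celf4, -1.24 for Il18rap and -1.31 for Dusp1, and none of these passed.

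Cd74, the invariant chain of class II antigen presentation, was at 10.71, 7.54, 8.18 and 6.76 in glomus cells and at 5.74, 4.50, 5.95 and 5.32 in hypoxic neuroblasts. The glomus samples differed among themselves by more than 3 on the log2 scale, and replicate 1 was highest. Other macrophage markers moved with Cd74. In that list 6 of 16 were lower and none higher, beside 13.9% lower and 17.8% higher over all probes. The lower genes included Lyz2 (-2.35), Csf1r (-1.61) and C1qb (-1.19). The log2 of the list's summed signal was 9.18 to 11.88 in normoxic glomus cells and 8.49 to 9.27 in hypoxic neuroblasts. Whether macrophages in the unstained fraction account for this was not tested. Of 9 endothelial markers Cldn5 was the only called gene, lower by 1.05 (-1.05, adjusted p = 0.0271), a call lost without hypoxic neuroblast replicate 1 (-0.62, adjusted p = 0.0737), normoxic glomus replicate 3 (adjusted p = 0.0688) or normoxic glomus replicate 4 (adjusted p = 0.0741). Of 13 fibroblast markers 1 was higher, Lum (2.48), and 2 were lower, Fn1 (-2.29) and Fbln1 (-0.99), and the Lum call was lost after centring (adjusted p = 0.104), without any single normoxic glomus sample and without hypoxic neuroblast replicate 1, 2 or 4 (adjusted p up to 0.13). Of 10 pericyte and smooth muscle markers 2 were higher, Mcam (1.79) and Des (0.72), and 1 was lower, Rgs5. T and NK cell, neutrophil and erythroid markers gave 2 higher genes each and 1, 0 and 0 lower, and no higher call in these lists survived centring. Of 13 peripheral neuron markers 3 were higher, near the share of all probes, and none after centring, and 1 was lower, Map2 (-1.39).

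The Wnt pathway genes around Lgr5 gave 11 of 25 lower and 4 higher, with a median of -0.05, beside 13.9% lower and 17.8% higher over all probes. After centring 12 were lower and 1 higher. Axin2, a target and brake of the pathway, was at 9.40, 9.36, 9.30 and 9.47 in glomus cells and at 7.43, 7.87, 7.77 and 7.68 in hypoxic neuroblasts. The groups were separate by a wide margin and the difference was -1.70 ± 0.15 (SE, adjusted p = 1.42e-06). Axin2 was at 7.91 in normoxic neuroblasts, so unlike Lgr5 it was not nearer to glomus cells after hypoxia. Ctnnb1, beta-catenin, differed by -2.10 and Dkk3, a secreted Dickkopf family member, by -1.96. Sfrp1, a secreted Wnt antagonist, was higher by 1.77. All 3 passed.

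Of 33 neuroblast and immature neuron genes 8 were higher and 8 lower, beside 17.8% and 13.9% of all probes. The median was 0.20, and after centring 3 were higher and 9 lower. Rbfox1, a neuronal splicing factor, was at 5.0, 4.39, 4.78 and 4.48 in glomus cells and at 7.18, 6.32, 6.49 and 6.52 in hypoxic neuroblasts. The groups did not overlap and the difference was 1.97 (adjusted p = 5.66e-05). Its mean in normoxic neuroblasts was 8.99, so hypoxic neuroblasts held less of it than normoxic ones (-2.37, adjusted p = 9e-06) and more than hypoxic glomus cells (2.51, adjusted p = 0.000702). The cytoskeletal genes Dpysl3 (-1.85) and Map1b (-1.20) and the progenitor surface gene Prom1 (-1.19) were lower, and all passed. The carriers of the sorting epitope changed in both directions. Cntn1 (-2.39), Tnr (-1.61) and Ncam1 (-0.84) were lower in the stained hypoxic cells, Ptprz1 was higher (1.45) and L1cam did not pass (-0.67, adjusted p = 0.111). Between the populations in normoxia only L1cam passed among these 5 genes (1.37, adjusted p = 0.0297), and between the populations in hypoxia none did. Between hypoxic and normoxic neuroblasts Tnr (-2.04), L1cam (-2.04) and Ncam1 (-0.88) were lower, and all 3 passed.

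Sympathoadrenal transcription factors were lower in 7 of 14 cases and higher in 3, beside 13.9% lower and 17.8% higher over all probes. After centring they were lower in 8 and higher in none. No gene was higher without normoxic glomus replicate 3 or 4 or hypoxic neuroblast replicate 2, and 1 was higher without normoxic glomus replicate 2. Isl1, a LIM homeodomain factor, differed by -1.69, Hand2 by -1.04, Eya1 by -1.22 and Mycn by -0.89, and all passed.

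The called genes of oxidative phosphorylation were mostly higher, whereas those of glycolysis, given below, were mostly lower. Of 50 oxidative phosphorylation genes 34 were higher and 4 lower, beside 17.8% and 13.9% of all probes. The median was 0.72, and after centring 19 were higher and 5 lower. Ndufb6, a complex I subunit, was at 7.47, 8.53, 7.84 and 7.27 in glomus cells and at 9.74, 9.35, 10.08 and 9.60 in hypoxic neuroblasts. All hypoxic neuroblast values were higher and the difference was 1.92 ± 0.27 (SE, adjusted p = 6.57e-05). Uqcrq of complex III differed by 1.81, Cox5a of complex IV by 1.42 and Ndufb3 of complex I by 1.08. The 4 lower genes were Ndufs1, Sdha, Atp5f1a and Atp5f1b, which were named after their values were seen. Of 28 cytosolic ribosomal protein genes 10 were higher and 1 lower, Rps16 (1.80) and Rpl10a (1.12) among the higher. After centring 5 were higher and 3 lower. Against hypoxic glomus cells, hypoxic neuroblasts differed by 0.03 for Ndufb6, 0.31 for Uqcrq, 0.22 for Cox5a and 0.12 for Ndufb3. The same difference was 0.17 for Rps16 and -0.13 for Rpl10a, and none of these passed.

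Of 15 glycolysis genes 2 were higher and 6 lower, beside 17.8% and 13.9% of all probes, with a median of -0.22. After centring none was higher and 7 were lower, and after quantile normalization 1 was higher and 4 lower. Without hypoxic neuroblast replicate 1, 2 were higher and 5 lower, with a median of -0.07. The genes named here are lower ones, picked by the smallest p. Slc2a3, a glucose transporter, was at 10.55, 10.51, 10.50 and 10.37 in glomus cells and at 6.49, 9.04, 8.65 and 8.72 in hypoxic neuroblasts. Replicate 1 was by far the lowest, and the difference of -2.26 became -1.68 without it, passing in both cases. Pfkp, a phosphofructokinase (-1.75), Slc2a1, another glucose transporter (-1.08), and Gpi, glucose phosphate isomerase (-0.84), were lower too. Among 28 other targets of hypoxia-inducible factors 3 were higher and 5 lower, near the 17.8% and 13.9% of all probes, and after centring 1 was higher and 8 lower. Adm, the vasodilator adrenomedullin, was at 11.26, 11.22, 11.26 and 11.57 in glomus cells and at 8.01, 9.19, 9.59 and 9.27 in hypoxic neuroblasts, with no overlap and a difference of -2.31 (adjusted p = 9.78e-06). The carbonic anhydrase gene Car12 (-2.29) and Ndrg1 (-1.28) were lower, and the mitochondrial gene Higd1a (0.99) was higher, all passing. Against hypoxic glomus cells, hypoxic neuroblasts differed by -0.51 for Slc2a3, -1.08 for Pfkp, -0.55 for Slc2a1 and -0.395 for Gpi. The same difference was -0.85 for Adm, -0.32 for Car12, -0.0025 for Ndrg1 and -0.155 for Higd1a, and none of these passed.

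Of 22 immediate early and dissociation stress genes 2 were higher and 10 lower, beside 17.8% and 13.9% of all probes, and without hypoxic neuroblast replicate 1 the counts were 1 and 8. Jun (-2.29), Fosb (-2.19) and Arc (-2.54) were among the lower genes. A second Jun probe differed by -0.61 (adjusted p = 0.124). Against hypoxic glomus cells, hypoxic neuroblasts differed by -0.685 for Jun, -1.05 for Fosb and -2.08 for Arc, and none of these passed. Such genes respond to tissue dispersal as well as to activity, and the part of cell handling in their levels was not tested. Of 20 endoplasmic reticulum stress genes 2 were higher and 11 lower, with a median of -0.66. Herpud1 was at 8.61, 8.83, 8.95 and 8.54 in glomus cells and at 6.52, 6.79, 6.55 and 7.14 in hypoxic neuroblasts, with no overlap and a difference of -1.98 ± 0.19 (SE, adjusted p = 2.41e-06). The chaperone genes Calr (-1.92), Hspa5 (-1.18) and Canx (-0.87) were also lower. Against hypoxic glomus cells the differences were -0.815 for Herpud1, -0.07 for Calr, -0.33 for Hspa5 and -0.235 for Canx, and none passed.

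**Figure D4:**
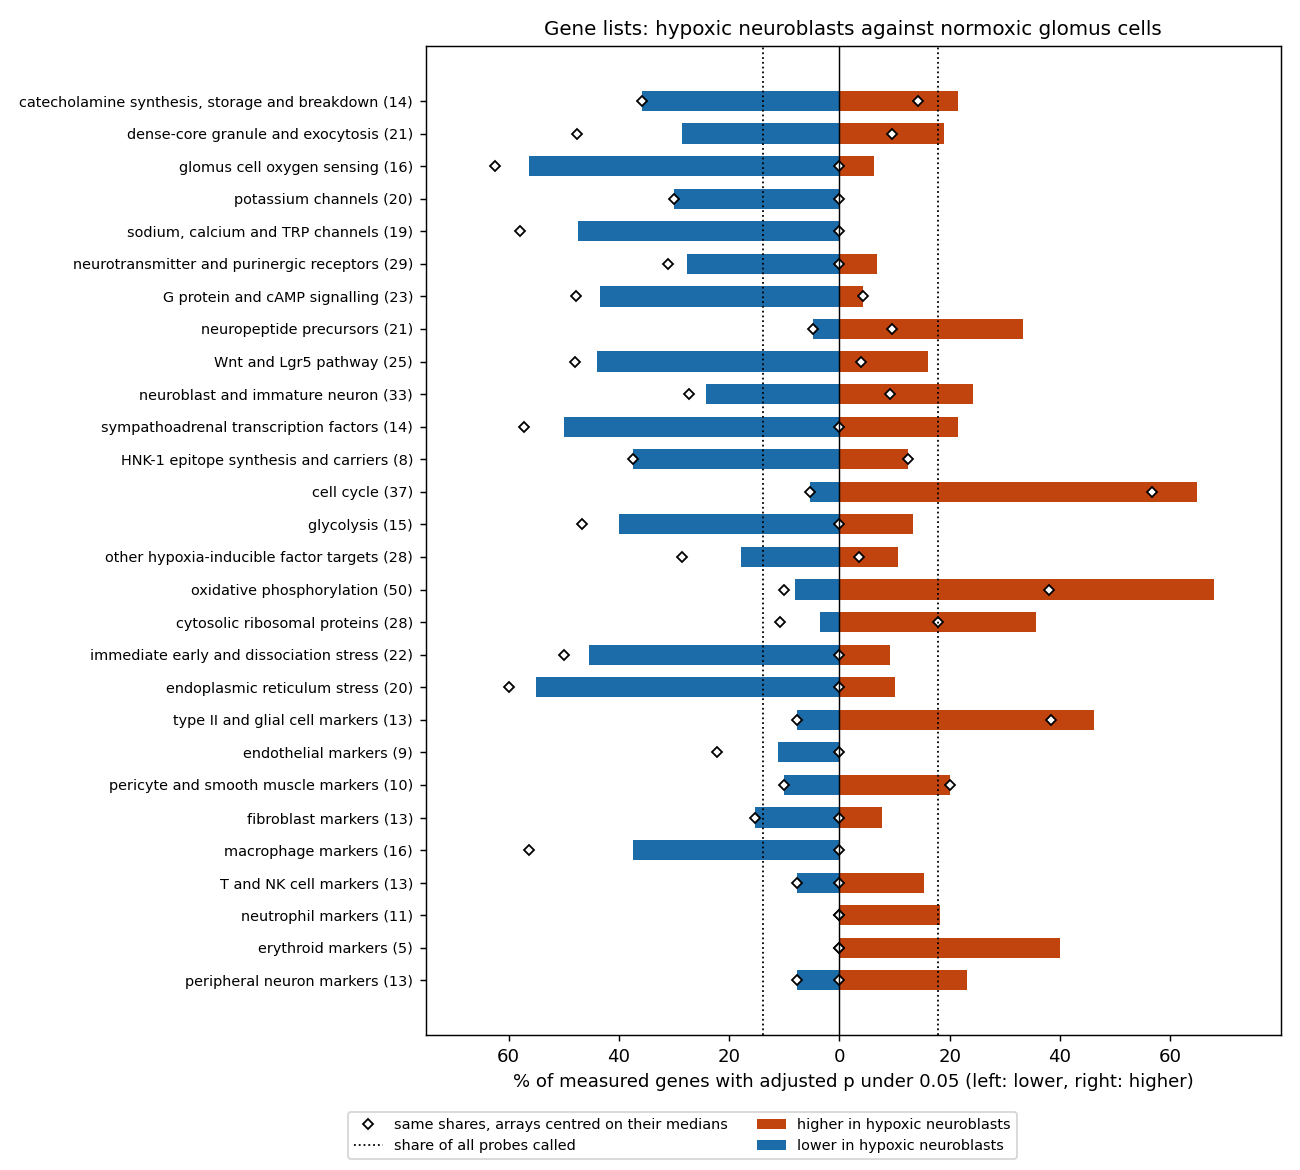
Share of the measured genes of each list (number in brackets) called higher (right) or lower (left) in hypoxic neuroblasts against normoxic glomus cells, with the shares after median centring (diamonds) and the shares of all probes before centring, 17.8% higher and 13.9% lower (dotted lines). The dotted lines do not apply to the diamonds. After centring, 1624 of all 30429 probes were higher and 5562 lower. The cell cycle, oxidative phosphorylation and glial lists extend farthest to the right after centring.

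Set beside the normoxic neuroblasts, single genes fell into 3 kinds, picked by size as a description without a count or test. The first differed from resting glomus cells in the same direction in normoxic and in hypoxic neuroblasts. Fxyd1 averaged 5.62 in normoxic glomus cells, 8.39 in normoxic neuroblasts and 10.42 in hypoxic neuroblasts. For Adora2a the same means were 10.16, 7.39 and 7.28, for Lamc3 9.16, 6.71 and 6.06, for Il18rap 8.06, 5.49 and 5.25, and for Lrrc55, an auxiliary subunit of large-conductance potassium channels, 7.85, 5.18 and 5.44. The difference widened for Fxyd1, where hypoxic neuroblasts were 2.03 above normoxic ones (adjusted p = 0.0013), and for Lamc3, where they were lower (-0.65, adjusted p = 0.0454), a call lost without hypoxic neuroblast replicate 1 (adjusted p = 0.0994). Hypoxic glomus cells had 8.11 for Fxyd1, 8.34 for Adora2a, 7.03 for Lamc3, 6.50 for Il18rap and 6.65 for Lrrc55. In these 5 genes they lay between normoxic glomus cells and hypoxic neuroblasts. Prlh, also of this kind, was the exception, at 5.44 in both normoxic and hypoxic glomus cells.

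In the second kind, hypoxic neuroblasts differed from normoxic ones in the direction opposite to the normoxic population difference. Kcnd2, the A-type potassium channel Kv4.2, was at 4.52, 4.50, 3.61 and 4.45 in normoxic glomus cells and at 3.70, 5.05, 4.88 and 5.53 in hypoxic neuroblasts, with overlapping ranges, after a normoxic neuroblast mean of 8.26. Scn9a, the sodium channel Nav1.7, averaged 4.21 in normoxic glomus cells, 8.41 in normoxic neuroblasts and 4.95 in hypoxic neuroblasts. Cdh7, a neural crest cadherin, averaged 4.26, 7.51 and 4.13, and Sctr, the secretin receptor, 4.49, 7.83 and 4.64. None of these 4 genes passed in hypoxic neuroblasts against normoxic glomus cells (adjusted p from 0.0576 for Scn9a to 0.74 for Cdh7), which does not show equality. Scn9a passed without hypoxic neuroblast replicate 3 (0.93, adjusted p = 0.0274), without normoxic neuroblast replicate 1 (adjusted p = 0.0466) or 2 (adjusted p = 0.0494), without the dimmest 50% of probes (adjusted p = 0.0445) and with the replicate block (adjusted p = 0.0176). Kcnd2 passed without hypoxic neuroblast replicate 1 (0.88, adjusted p = 0.0089) and with array weights (0.84, adjusted p = 0.0173). For Scn9a the hypoxic neuroblasts were still 1.49 above hypoxic glomus cells (adjusted p = 0.0296). Tac3 moved upwards, from 4.86 in normoxic neuroblasts to 8.74, past the normoxic glomus mean and below the hypoxic glomus mean of 10.38. Tnpo1, a nuclear import receptor, went from 9.85 to 6.49, so its difference from the normoxic glomus level of 8.04 turned from 1.81 to -1.54 (adjusted p = 0.0066). The third kind was near the glomus level in normoxic neuroblasts and differed from it in hypoxic ones. Its 6 largest differences were those of the 6 cell cycle genes above. Genes outside the cell cycle met the same rule, among them Ddx6 (-3.31) and Dusp1 (-3.08), both lower, and Rps16 (1.80).

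**Figure D5:**
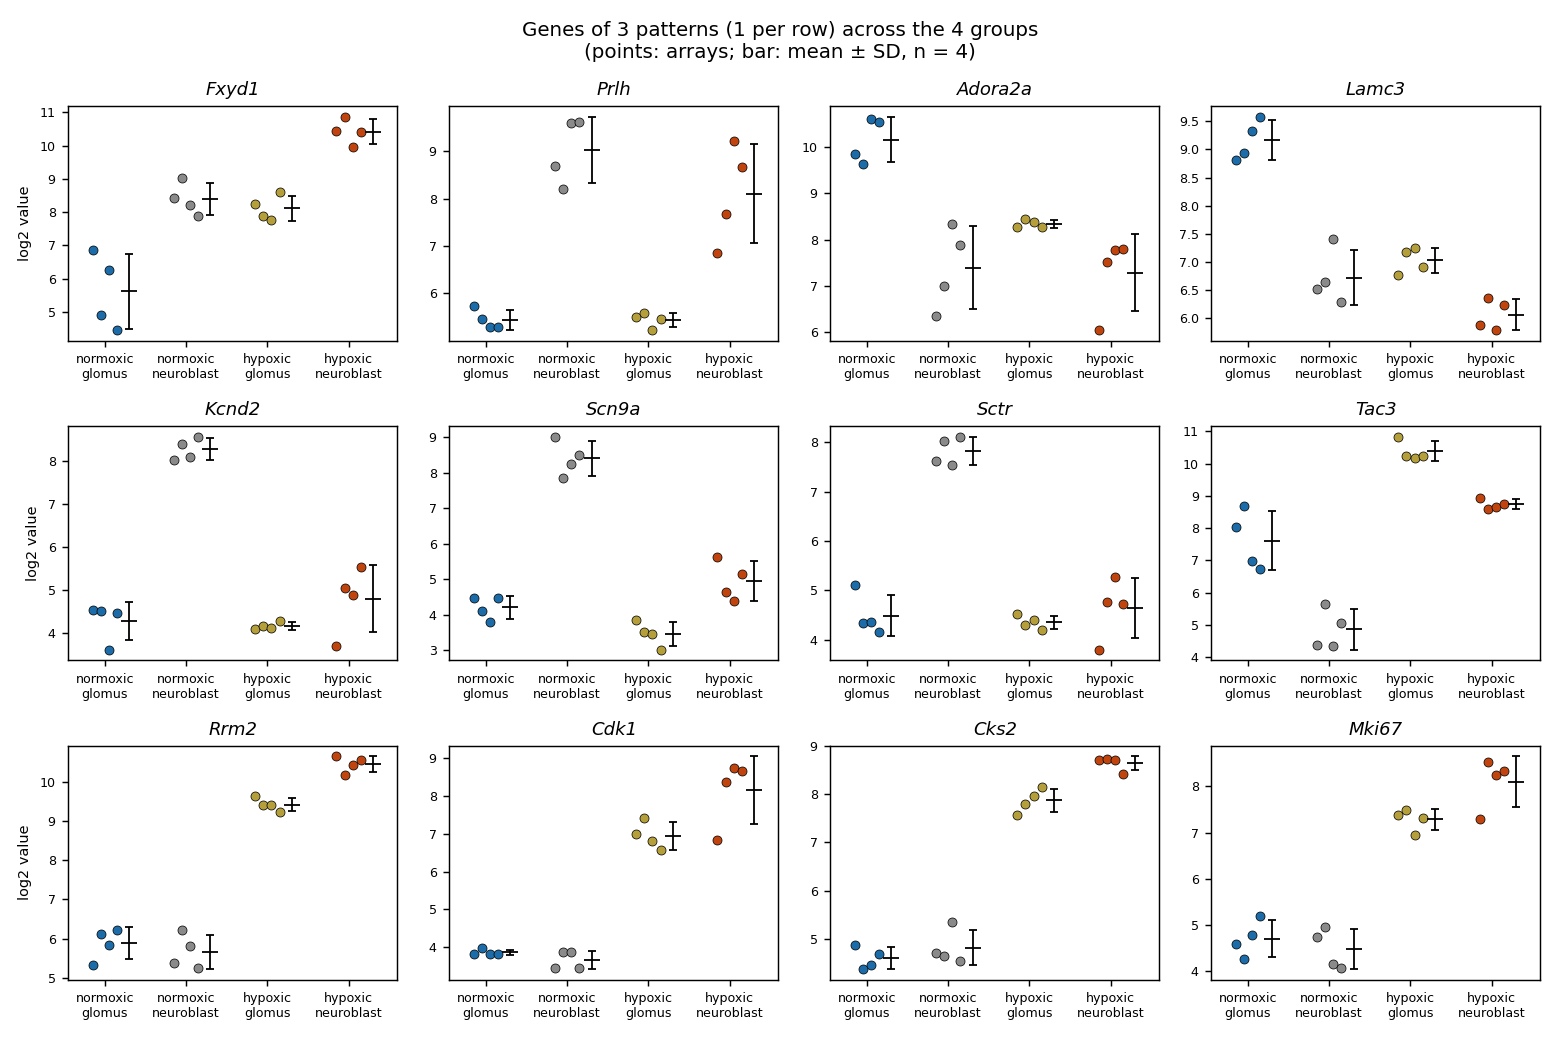
Log2 value in each of the 16 arrays (points) with group mean and SD (n = 4) for 4 genes whose distance from normoxic glomus cells lasted in hypoxic neuroblasts (top row), 4 whose distance was reduced (middle row) and 4 cell cycle genes (bottom row). Kcnd2 falls from a normoxic neuroblast mean of 8.26 to 4.79, close to the glomus mean of 4.27, and Rrm2 reaches 10.46 from 5.66.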

How the data were processed

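Total RNA of 16 sorted rat carotid body samples was measured on Affymetrix arrays, with biotin-labelled cDNA per the labels. The authors deposited processed log2 values for 30429 probe sets. The submitters' processing notes name Transcriptome Analysis Console, with version and summarisation not given in the sources used here, and the log2 base was read from the range of the values. No detection call was used, and no depth applies to arrays, so the 4 samples per group limit the precision. The deposited log2 values were used as they stand. limma 3.58.1 in R 4.3.3 was fitted with 4 group means over all 16 arrays (12 residual degrees of freedom), empirical Bayes variance and Benjamini-Hochberg adjustment over all probes at 0.05. In a test on simulated arrays, 45% of genes changed 2-fold and 96% of genes changed 4-fold were recovered. Far fewer probes were changed there than were called here, and no general shift was simulated, so recovery in this comparison may differ. Probes were named from the platform annotation: 18511 had a single gene, giving 18166 genes, and 575 had several and were left unnamed. A gene is shown by its brightest single-gene probe.

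The genes named are the 12 largest differences in each direction among genes with established symbols that passed and did not overlap, the 5 markers, Th and Epas1, the 4 genes with the smallest p in each list, up to 6 genes of each of 3 patterns, and the markers used to check the labels. Erbb3, Gfap and Sox10 were named after their values were seen. The comparison, its markers and the gene lists were chosen with earlier results of these data known. Similarity to the glomus profile was tested by exact permutation over arrays.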

Additional observations from a re-analysis of the deposited data

Results flagged for a closer look

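In 12 cases a single sample lay far from the other 3 of its group, among 261 groups examined, where chance gives about 1 in 20. Hypoxic neuroblast replicate 1 accounts for 6 of them. It was low for Slc18a1 (9.98 against 11.52 to 11.74), Adora2a (6.05 against 7.52 to 7.79), Slc2a3 (6.49 against 8.65 to 9.04) and Gpi (7.81 against 8.51 to 8.65), high for Ndufb3 (12.06 against 11.76 to 11.79), and low in its correlation with the normoxic glomus mean (0.8662 against 0.9333 to 0.9445). Hypoxic neuroblast replicate 4 was low for Cks2 (8.43 against 8.71 to 8.74) and high for Gnaq (7.86 against 7.30 to 7.37). Among normoxic glomus samples, replicate 2 was high for Cdk1 (3.97, the other 3 at 3.82), replicate 3 was high for Ndufa4l2 (11.70 against 11.34 to 11.40) and low for Kcnd2 (3.61 against 4.45 to 4.52), and replicate 4 was high for Adm (11.57 against 11.22 to 11.26).

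For 7 named genes the difference between neuroblasts and glomus cells itself differed between hypoxia and normoxia, by the interaction term of limma. It was positive for Lgr5 (2.33), Kcnk3 (1.60) and Nusap1 (1.82 ± 0.30, SE, adjusted p = 0.0298). It was negative for Kcnd2 (-3.36, adjusted p = 0.0029), Scn9a (-2.71, adjusted p = 0.0120), Cdh7 (-3.18, adjusted p = 0.0040) and Sctr (-3.06, adjusted p = 0.0028). Kcnd2, Scn9a, Cdh7 and Sctr were picked for a population difference that shrank, so their interaction values are a description. The same holds for the other 3 genes. Lgr5 and Kcnk3 are markers chosen with earlier results of these data known. Nusap1 was named for its small p in hypoxic neuroblasts against normoxic glomus cells, and those arrays also enter the interaction.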

How the results depend on the processing

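The count of 9648 called probes fell to 4986 at an adjusted p of 0.01, to 4103 with a difference of at least 2-fold as well, and to 6290 under quantile normalization without hypoxic neuroblast replicate 1. This and the combination of centring with leaving out that replicate were added after seeing the data. The 5431 higher probes became 1624 after median centring, 3043 after quantile normalization, 2964 without the dimmer 50% of probes, 3351 with only the 8 arrays compared, 2134 at 0.01, 1586 at 2-fold, 1716 with centring and 3012 with quantile normalization when replicate 1 was also left out, and 3180 to 6312 when single samples were left out, lowest without normoxic glomus replicate 3. The 4217 lower probes became 2517 at 2-fold. Leaving out normoxic neuroblast replicate 2, 3 or 4 gave an exact permutation p of 0.0571 for the correlation difference, which ranged from -0.0590 to -0.0329 with samples left out. With the replicate block it was -0.0513 with an exact p of 0.125, the smallest possible. That block gave 10009 called probes. Deviations of same-numbered hypoxic neuroblast and normoxic glomus arrays correlated at 0.15, -0.0631, 0.0484 and 0.1079 in replicates 1 to 4. Stained and unstained cells of the same oxygen condition were not compared in this way, so whether the numbers pair samples stays unknown. Counts of 1 or 2 genes in a list shifted by at most 2 when single samples were left out. The interaction passed for 2 of 5 markers in the report, 0 after centring, 1 with an intensity trend, 4 with array weights, 4 with quantile normalization without replicate 1, and 1 to 3 with single samples left out. It could not be fitted with only the 8 arrays compared. Differences that turned sign never passed: Slc18a2 (0.0358 under quantile normalization, 0.18 also without replicate 1), Cdh7 (0.0175 without normoxic glomus replicate 2, 0.0025 without hypoxic neuroblast replicate 3, as low as -0.2608 with others left out) and Sctr (-0.13 after centring, -0.16 under quantile normalization, -0.0517 without hypoxic neuroblast replicate 3, up to 0.4383 with others left out). Causes were not tested. Array number, unstated summarisation and the lack of detection calls limit dim genes.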
